A study of Mus musculus with 6 samples.

Results

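The transcripts of 10 genes that encode neutrophil granule proteins or late neutrophil products were measured in knee joint cartilage of mice at postnatal day 6 (P6), when *Hbb* was conditionally deleted in chondrocytes and when it was not. The members were chosen by name and by the maturation stage at which each is known to be made. They are *Mpo*, *Elane*, *Prtn3* and *Ctsg* of the primary granules, *Ngp*, *Camp* and *Ltf* of the secondary granules, and the late genes *S100a8*, *S100a9* and *Retnlg*, 10 of the 55487 genes in the deposited table. Poly(A) RNA was sequenced from 3 *Hbb*-cKO and 3 WT libraries of the whole cartilaginous tissue. The labels name the genotypes as *Hbb* conditional knockout in chondrocytes and wildtype. The study describes floxed *Hbb* mice on a C57BL/6J background, in which *Hbb-bs* as well as *Hbb-bt*, the adult β-globin genes, was targeted. They were crossed to *Col2a1*-*Cre*ERT2, which acts in chondrocytes after tamoxifen, and to *Prx1*-*Cre*, which acts in mesenchymal cells and chondrocytes. The study gives the name *Hbb*-cKO to the *Col2a1*-*Cre*ERT2 cross. Which of these crosses gave the sequenced libraries, whether the WT animals carried floxed alleles, *Cre* or tamoxifen, and how many mice each library holds is not stated in those sources. The study calls the samples behind its cartilage RNA-seq biologically independent, and the p-values below measure the spread between these libraries.

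Neutrophils are made in the bone marrow, and their granules are filled in sequence as the cell matures. Promyelocytes make the proteins of the primary (azurophil) granules, myelocytes and metamyelocytes make those of the secondary (specific) granules, and the last stages add further products while the earlier genes are shut down. Transcripts of the primary granule genes are thus mostly found in immature cells of the marrow and are scarce in circulating neutrophils, whereas *S100a8* and *S100a9* transcripts stay abundant in mature cells. *S100a8* and *S100a9* are also made by monocytes and have been described in chondrocytes, and the P6 joint borders on bone with marrow.

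The members lie in a few places in the genome, given here on GRCm38, the build whose GENCODE M21 annotation held the same positions as the deposited table for 99.4% of the identifiers. *Prtn3* (chr10:79874476-79883174) and *Elane* (chr10:79886247-79888215) are neighbours on chromosome 10, on the same strand and 3072 bases apart. *Camp* (chr9:109847379-109849617), *Ngp* (chr9:110419747-110423012) and *Ltf* (chr9:111019271-111042767) lie on chromosome 9, with 570129 bases between the first pair and 596258 between *Ngp* and *Ltf*. *S100a8* (chr3:90668978-90670035) and *S100a9* (chr3:90692632-90695721) are 22596 bases apart on opposite strands of chromosome 3. *Mpo* (chr11:87793581-87804413), *Ctsg* (chr14:56099881-56102574) and *Retnlg* (chr16:48872621-48874496) stand alone. Of the exon sequence of *Mpo*, 12% of all windows of 50 bases is shared with the antisense gene *Gm11505*, which held 2, 0 and 3 counts in *Hbb*-cKO replicates 1, 2 and 3 and 0 counts in each WT library. The other members shared no such window with another gene. The locus of *Prtn3* overlaps that of *Plppr3* on the opposite strand. *Plppr3* held 180, 246 and 192 counts in *Hbb*-cKO replicates 1, 2 and 3 and 219, 181 and 182 in WT replicates 1, 2 and 3.

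The promoters are shown because the members, grouped by stage, differed in which letters of myeloid factor motifs they hold. The RefSeq table on GRCm38.p6 gave a promoter for 10 of 10 members, from 250 bases before to 50 bases after the start, and 4 motifs were searched on both strands. They were GAGGAAG for PU.1, TTNNGNAA for C/EBP factors, TGTGGT for RUNX factors and AAATCA for GFI1. Printed here are the 250 bases before the start, 5′ to 3′ on the strand of the gene, with motif matches in capitals, for a pair of primary granule genes, 1 secondary granule gene and 1 late gene: *Elane* (chr10:79886062-79886311, + strand), *Prtn3* (chr10:79879417-79879666, + strand), *Ngp* (chr9:110419558-110419807, + strand) and *S100a9* (chr3:90695722-90695971, − strand).
Elane: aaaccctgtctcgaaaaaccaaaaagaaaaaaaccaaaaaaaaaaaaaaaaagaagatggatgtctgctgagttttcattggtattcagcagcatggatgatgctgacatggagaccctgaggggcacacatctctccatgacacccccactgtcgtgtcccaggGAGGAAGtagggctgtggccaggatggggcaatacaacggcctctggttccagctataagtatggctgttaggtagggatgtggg
Prtn3: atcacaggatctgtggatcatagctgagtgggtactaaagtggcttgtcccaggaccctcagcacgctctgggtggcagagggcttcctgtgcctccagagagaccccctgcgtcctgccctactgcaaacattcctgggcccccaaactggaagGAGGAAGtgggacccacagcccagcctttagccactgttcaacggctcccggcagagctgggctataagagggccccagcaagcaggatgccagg
Ngp: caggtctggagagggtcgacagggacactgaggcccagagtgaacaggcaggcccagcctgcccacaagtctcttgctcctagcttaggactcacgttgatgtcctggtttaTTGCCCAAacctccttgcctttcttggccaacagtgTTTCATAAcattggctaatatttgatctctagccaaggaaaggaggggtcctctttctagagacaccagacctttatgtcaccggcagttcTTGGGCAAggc
S100a9: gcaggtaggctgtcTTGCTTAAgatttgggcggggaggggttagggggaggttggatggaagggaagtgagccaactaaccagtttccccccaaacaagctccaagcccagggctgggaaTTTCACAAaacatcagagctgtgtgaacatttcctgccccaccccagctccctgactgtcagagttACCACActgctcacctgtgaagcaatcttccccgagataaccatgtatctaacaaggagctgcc

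The capitals in *Elane* and *Prtn3* are the PU.1 letters, which begin at −85 and −95 from the start. The capitals in *Ngp* are C/EBP letters in 3 places, at −138 and −102 on the other strand and at −11 on the printed strand. Those in *S100a9* are all matches on the other strand, the C/EBP letters at −236 and −130 and the RUNX letters at −64. The PU.1 letters were in the promoters of 4 of 4 primary granule genes, 0 of 3 secondary granule genes and 1 of 3 late genes (*S100a8*). The C/EBP letters were in 0 of 4 primary, 2 of 3 secondary (*Ngp*, *Ltf*) and 3 of 3 late promoters. Among all 32851 RefSeq promoters of the same length, 13.6% held the PU.1 letters, 40.7% the C/EBP letters, 16.8% the RUNX letters and 14.0% the GFI1 letters. RUNX letters were found in *Ctsg*, *Ltf* and *S100a9*, GFI1 letters in *Ltf*, where they overlap a C/EBP match, and none of the 4 motifs in *Camp*. These matches describe the letters and say nothing about binding of a factor.

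The *Hbb*-cKO libraries held 17405688 to 20969914 counts in total and the WT libraries 16544800 to 17475496, and levels are given as CPM, which are counts divided by the TMM-adjusted library size. The 2 adult β-globin genes summed to 4195, 5444 and 5014 CPM in *Hbb*-cKO replicates 1, 2 and 3 and to 16810, 12450 and 6912 CPM in WT replicates 1, 2 and 3. The chondrocyte marker *Col2a1* was at 11310, 38290 and 28360 CPM in the *Hbb*-cKO libraries and at 26100, 29310 and 22280 CPM in the WT libraries. Cartilage transcripts were thus present in each, with the lowest level in *Hbb*-cKO replicate 1. Muscle transcripts were abundant too, as 8 skeletal muscle markers summed to 32170, 23060 and 26870 CPM in *Hbb*-cKO and to 28850, 31960 and 46450 CPM in WT. In *Hbb*-cKO replicate 1 and WT replicate 3 this exceeded the sum of 10 chondrocyte markers, 16670 and 32080 CPM. The libraries also differed in sex-linked transcripts. In *Hbb*-cKO replicate 2, *Xist* had 6 counts and the 4 Y-linked genes had 2907, in WT replicates 1 and 2 *Xist* had 10430 and 8739 counts and the Y-linked genes had 0, and the remaining 3 libraries held both.

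The granule genes were high in *Hbb*-cKO replicates 1 and 3 and near the WT level in *Hbb*-cKO replicate 2. The 10 members together took 2270, 560 and 2305 counts in *Hbb*-cKO replicates 1, 2 and 3, or 129.0, 28.07 and 108.8 CPM. In WT replicates 1, 2 and 3 they took 666, 440 and 328 counts, or 39.88, 26.75 and 18.92 CPM. *Hbb*-cKO replicate 2 was the lowest *Hbb*-cKO library for 10 of 10 members and was below the WT mean for 6 of them. WT replicate 1 was the highest WT library for 10 of 10.

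**Figure D1:**
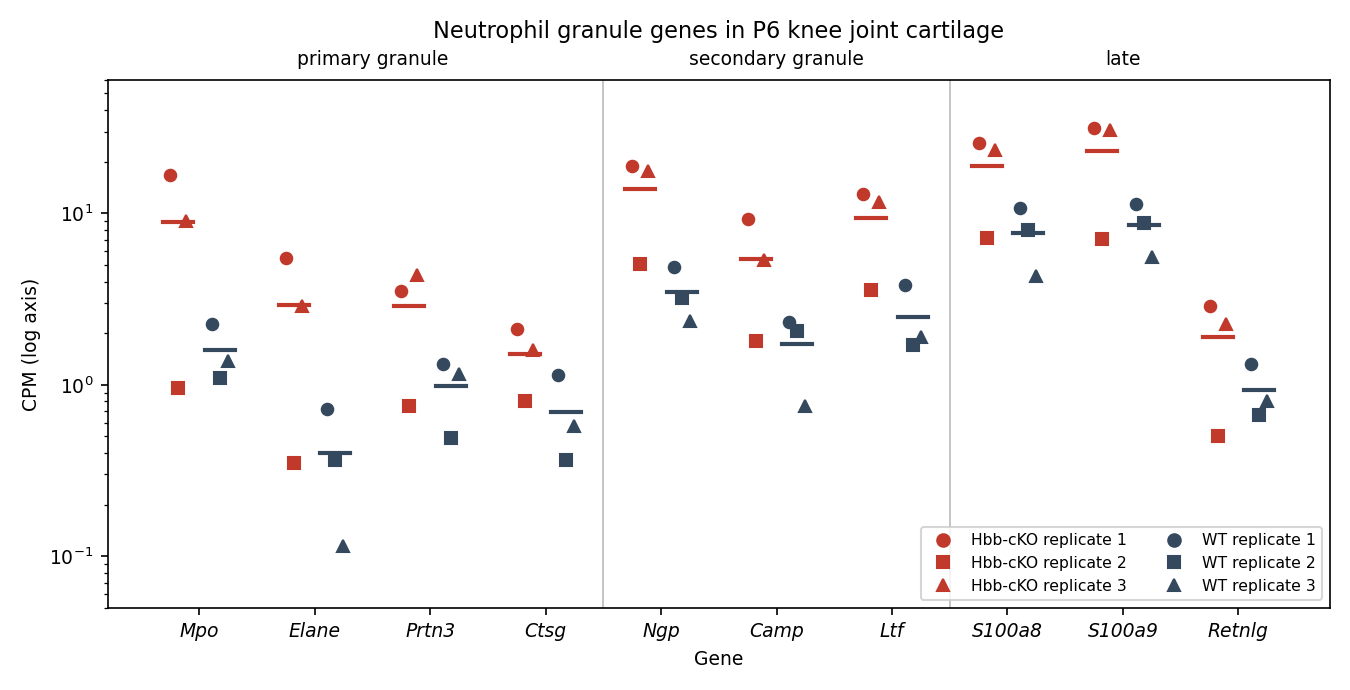
CPM on a log axis of the 10 granule genes in each library, with *Hbb*-cKO in red to the left of WT in blue, marker shape giving the replicate number and bars the group means (n = 3). *Hbb*-cKO replicates 1 and 3 lie above every WT library for each gene, and replicate 2 (squares) lies above all WT libraries only for *Ngp*.

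Among the primary granule genes, *Mpo* and *Elane* had the widest spread between the *Hbb*-cKO libraries of all members. *Mpo*, the haem peroxidase that makes hypochlorous acid, was at 16.65, 0.952 and 9.01 CPM in *Hbb*-cKO replicates 1, 2 and 3, against 2.28, 1.09 and 1.39 CPM in WT replicates 1, 2 and 3. Replicate 2 of *Hbb*-cKO was thus below all WT libraries, and the groups overlapped. *Mpo* averaged 8.87 ± 4.53 CPM in *Hbb*-cKO, against 1.59 ± 0.355 CPM in WT (s.e.m., n = 3 each), a log2 fold change of 2.48 (SE 0.94, edgeR adjusted p = 0.455). *Elane*, neutrophil elastase, was at 5.51, 0.351 and 2.88 CPM in *Hbb*-cKO, against 0.719, 0.365 and 0.115 CPM in WT. It had the largest log2 fold change of the members, 2.84 (SE 1.01, edgeR adjusted p = 0.403), and the lowest counts in WT, with 97, 7 and 61 in *Hbb*-cKO and 12, 6 and 2 in WT. *Hbb*-cKO replicate 2 was again among the WT libraries. *Prtn3*, proteinase 3, the neighbour of *Elane*, was at 3.52, 0.752 and 4.39 CPM in *Hbb*-cKO, against 1.32, 0.486 and 1.15 CPM in WT, with a log2 fold change of 1.54 (SE 0.66, edgeR adjusted p = 0.494). It was the only member highest in *Hbb*-cKO replicate 3. *Ctsg*, cathepsin G, a further serine protease of these granules, was at 2.103, 0.802 and 1.60 CPM in *Hbb*-cKO, against 1.14, 0.365 and 0.577 CPM in WT, and its log2 fold change was the smallest of this stage, 1.10 (SE 0.51, edgeR adjusted p = 0.525).

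Of the secondary granule genes, *Ngp* and *Ltf* had the smallest p-values of all members. *Ngp*, neutrophilic granule protein, a relative of the cathelicidins and cystatins, was at 18.87, 5.06 and 17.55 CPM in *Hbb*-cKO replicates 1, 2 and 3, against 4.85, 3.22 and 2.37 CPM in WT replicates 1, 2 and 3. It was the 1 member of 10 whose groups did not overlap, by 5.06 CPM against 4.85 CPM, where 17.7% of all tested genes did not overlap and 8.7% had every *Hbb*-cKO library above every WT library. *Ngp* averaged 13.83 ± 4.40 CPM in *Hbb*-cKO, against 3.48 ± 0.729 CPM in WT (s.e.m., n = 3 each), a log2 fold change of 1.99 (SE 0.53, edgeR adjusted p = 0.291). *Ltf*, lactoferrin, which binds iron, was at 12.96, 3.56 and 11.70 CPM in *Hbb*-cKO, against 3.83, 1.70 and 1.90 CPM in WT. Its log2 fold change was 1.92 (SE 0.54, edgeR adjusted p = 0.310), and *Hbb*-cKO replicate 2 lay just below WT replicate 1. *Camp*, the precursor of the mouse cathelicidin antimicrobial peptide, was at 9.21, 1.804 and 5.33 CPM in *Hbb*-cKO, against 2.34, 2.07 and 0.750 CPM in WT, with a log2 fold change of 1.66 (SE 0.64, edgeR adjusted p = 0.453). Here *Hbb*-cKO replicate 2 was below WT replicates 1 and 2.

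The late genes held the most abundant members, *S100a8* and *S100a9*, and had the lowest median log2 fold change of the 3 stages, 1.29, against 2.01 for the primary and 1.92 for the secondary granule genes. *S100a8*, a subunit of the calcium- and zinc-binding protein calprotectin, was at 25.86, 7.17 and 23.26 CPM in *Hbb*-cKO replicates 1, 2 and 3, against 10.72, 7.97 and 4.33 CPM in WT replicates 1, 2 and 3. *S100a9*, the partner of *S100a8* in calprotectin, was at 31.43, 7.12 and 30.77 CPM in *Hbb*-cKO, against 11.38, 8.82 and 5.54 CPM in WT. For both, *Hbb*-cKO replicate 2 was below WT replicates 1 and 2. The log2 fold changes were 1.29 (SE 0.53) for *S100a8* and 1.43 (SE 0.58) for *S100a9*, with edgeR adjusted p = 0.494 and 0.491. *S100a8* held 0.823, 1.01 and 0.756 counts per *S100a9* count in the *Hbb*-cKO libraries and 0.942, 0.903 and 0.781 in the WT libraries, so the balance of the pair differed little while their level differed several-fold. *Retnlg*, resistin-like γ, which marks maturing mouse neutrophils, was at 2.90, 0.501 and 2.27 CPM in *Hbb*-cKO, against 1.32, 0.669 and 0.808 CPM in WT, with a log2 fold change of 1.01 (SE 0.61, edgeR adjusted p = 0.623).

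In edgeR's quasi-likelihood test, 0 of 10 members passed an adjusted p of 0.05, where 0.105% of the 17175 tested genes did (18 genes) and 0.0349% passed as higher in *Hbb*-cKO (6 genes). In DESeq2, 2 of 10 passed, *Ngp* (adjusted p = 0.00259) and *Ltf* (adjusted p = 0.00983), both higher in *Hbb*-cKO, where 1.16% of the genes with a DESeq2 adjusted p were called and 0.593% were called higher. At an unadjusted p under 0.05, 8 of 10 members were higher in either tool, against 4.89% of genes in edgeR and 4.34% in DESeq2 (10.1% and 8.14% in either direction). *Ctsg* and *Retnlg* were the exceptions in both. All 10 log2 fold changes were above 0, as were 47.5% of all tested genes, and 10 of 10 were above 1, as were 1.04% of all tested genes. The median log2 fold change was 1.60 over the members and −0.01 over all tested genes. The members vary together across libraries, with Pearson's r of log2 CPM from 0.735 to 0.99 over the 45 pairs of members in the same 6 libraries, so their counts are not 10 separate results. In bulk tissue, more cells of a type and more RNA per cell cannot be told apart.

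**Figure D2:**
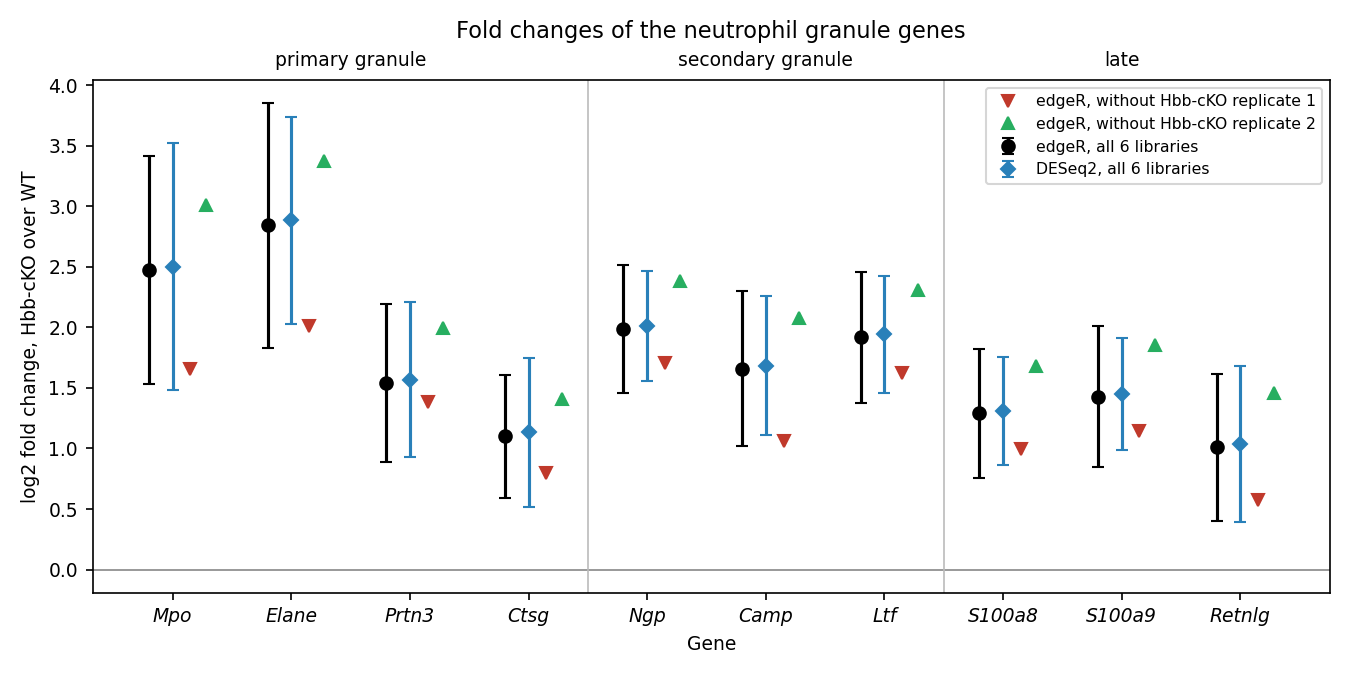
Log2 fold change of *Hbb*-cKO over WT for the 10 granule genes in edgeR (black) and DESeq2 (blue), bars giving the standard error, with the edgeR value without *Hbb*-cKO replicate 1 (red) and without replicate 2 (green). All values are above 0, and leaving out replicate 2 gave *Mpo* 3.01 and *Ngp* 2.39.

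The members spread widely between libraries of 1 genotype. Their biological coefficient of variation in edgeR was 0.382 to 0.756 for the members, against a median of 0.183 over all tested genes. For *Mpo* and *Elane* it was in the highest 1% of all tested genes. The pattern of *Hbb*-cKO replicates 1 and 3 above every WT library with replicate 2 not above was defined after its values were seen, and it held for 9 of 10 members and for 4.82% of all tested genes. Without *Hbb*-cKO replicate 2 the edgeR adjusted p was 0.0685 for *Ngp* and 0.0839 for *Mpo*, and no member passed. Without *Hbb*-cKO replicate 1 the adjusted p was 0.562 for *Ngp* and 0.700 for *Mpo*, and without replicate 3 it was 0.719 for *Ngp* and 0.830 for *Mpo*.

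The ratio between *Hbb*-cKO libraries was not the same for every member. *Hbb*-cKO replicate 1 held 17.5 times the *Mpo* CPM of replicate 2 (95% counting interval 11.0 to 29.5) and 15.7 times the *Elane* CPM (7.34 to 40.1). For *Prtn3* the ratio was 4.69 (2.63 to 8.87) and for *Ctsg* 2.62 (1.42 to 5.05), so the primary granule genes did not share 1 ratio. The secondary granule genes lay closer together, at 3.73 (2.97 to 4.70) for *Ngp*, 3.64 (2.78 to 4.82) for *Ltf* and 5.10 (3.54 to 7.54) for *Camp*. The late genes had ratios of 3.61 (2.98 to 4.38) for *S100a8*, 4.42 (3.67 to 5.35) for *S100a9* and 5.78 (2.90 to 12.8) for *Retnlg*. The interval of *Mpo* thus lay above those of *Ngp*, *Ltf*, *Camp*, *S100a8* and *S100a9*, and also above those of *Prtn3* and *Ctsg* of its own stage. Against *Hbb*-cKO replicate 3, replicate 1 had 1.85 times the *Mpo* CPM (1.53 to 2.23), 1.92 times the *Elane* CPM (1.38 to 2.68) and 1.73 times the *Camp* CPM (1.35 to 2.22), while the intervals of the other 7 members included 1. These intervals cover counting error only and compare libraries, not genotypes.

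**Figure D3:**
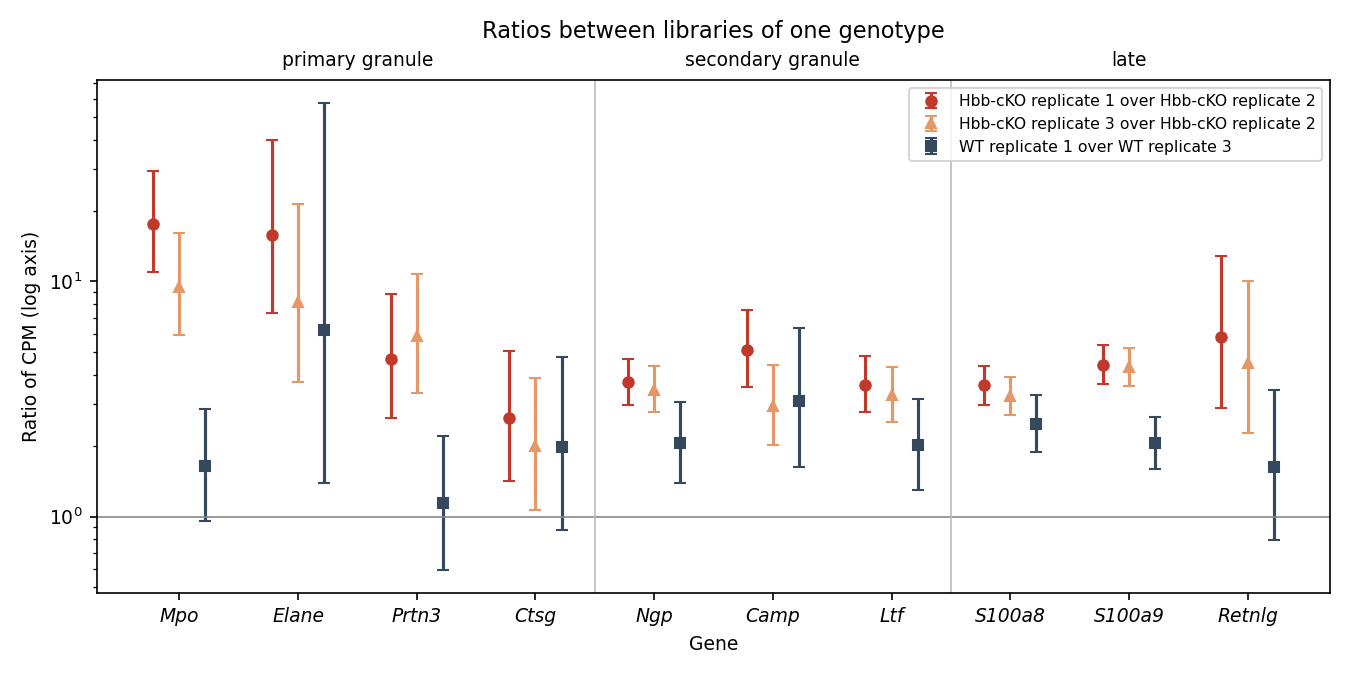
Ratio of CPM on a log axis between libraries of 1 genotype for each granule gene, *Hbb*-cKO replicate 1 over 2 (red), *Hbb*-cKO replicate 3 over 2 (orange) and WT replicate 1 over 3 (blue), with 95% counting intervals. The ratio of *Hbb*-cKO replicate 1 over 2 was 17.5 for *Mpo* and 3.61 for *S100a8*.

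Divided by transcript length, the late genes led in both genotypes. *S100a9* averaged 44.51 CPM per kb in *Hbb*-cKO and 16.53 in WT, and *S100a8* averaged 38.61 in *Hbb*-cKO and 15.78 in WT. *Ngp* followed with 11.32 in *Hbb*-cKO and 2.85 in WT, then *Camp* with 7.19 in *Hbb*-cKO and 2.27 in WT. The other 6 members were at 3.43 CPM per kb or less in *Hbb*-cKO and at 1.57 or less in WT.

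The summed CPM per kb of the members was split by stage in each library. Late genes made up 70.6%, 74.5% and 74.6% in *Hbb*-cKO replicates 1, 2 and 3, against 78.8%, 82.0% and 77.9% in WT replicates 1, 2 and 3. Secondary granule genes made up 19.2%, 19.9% and 17.3% in *Hbb*-cKO, against 14.4%, 14.2% and 13.5% in WT. For both stages the genotypes did not overlap, and *Hbb*-cKO replicate 2 was on the side of the other *Hbb*-cKO libraries although its level was that of WT. The shares are parts of the same total, so a lower late share goes with a higher share of the rest and these are not separate results. Among all tested genes, the CPM of 17.7% did not overlap between the genotypes. Primary granule genes made up 10.2%, 5.68% and 8.13% in *Hbb*-cKO, against 6.79%, 3.82% and 8.64% in WT, with overlap. These shares are scores over the members and were not tested. In counts, *Ngp* per *S100a8* was 0.730 (95% interval 0.631 to 0.842), 0.706 (0.542 to 0.918) and 0.755 (0.658 to 0.865) in *Hbb*-cKO, against 0.453 (0.344 to 0.592), 0.405 (0.288 to 0.561) and 0.547 (0.364 to 0.810) in WT. All 3 *Hbb*-cKO ratios were above all 3 WT ratios. However, WT replicate 3 had an interval that reached the *Hbb*-cKO values, and the interval of *Hbb*-cKO replicate 2 overlapped those of all 3 WT libraries. *Ltf* per *S100a8* had the same order, at 0.501, 0.497 and 0.503 in *Hbb*-cKO, against 0.358, 0.214 and 0.440 in WT. Its intervals overlapped between the genotypes, with 0.368 to 0.664 in *Hbb*-cKO replicate 2 and 0.283 to 0.671 in WT replicate 3. *Camp* per *S100a8* did not have this order. *Hbb*-cKO replicate 2 held 36 *Camp* and 143 *S100a8* counts, a lower ratio than the 34 and 131 counts of WT replicate 2. *Mpo* per *S100a8* also lacked this order, at 0.644, 0.133 and 0.387 in *Hbb*-cKO, against 0.212, 0.137 and 0.320 in WT. The pairs were picked by no stated rule.

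**Figure D4:**
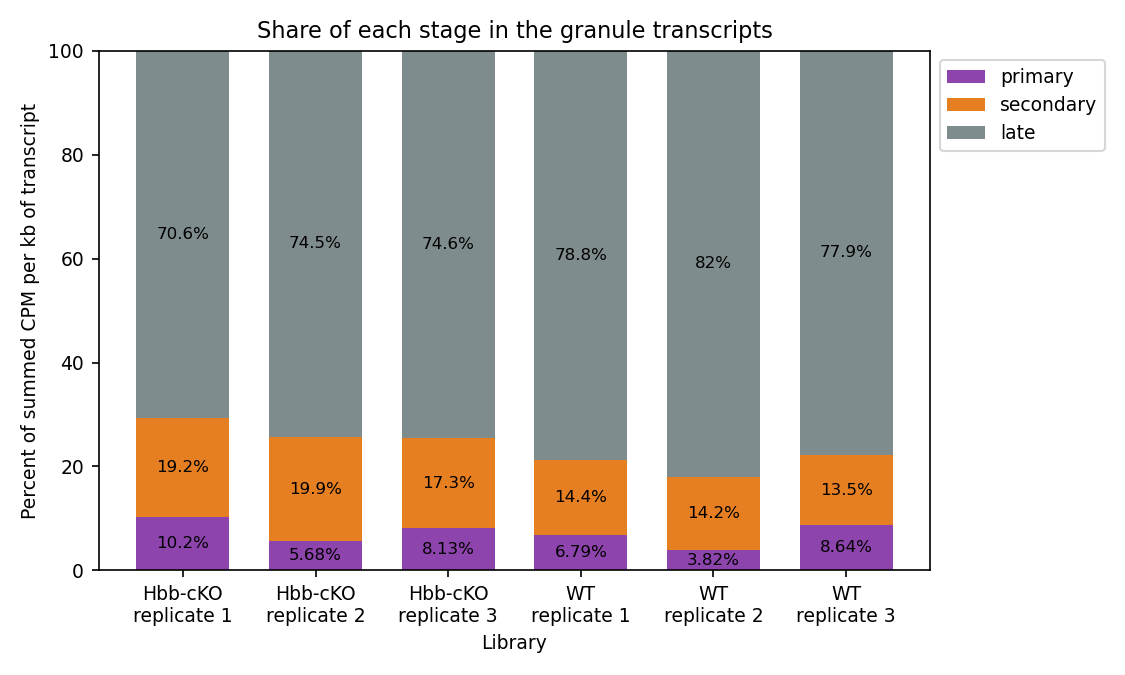
Percent of the summed CPM per kb of the 10 granule genes that came from primary (purple), secondary (orange) and late (grey) genes in each library, *Hbb*-cKO to the left of WT. Late genes hold 70.6% to 74.6% in *Hbb*-cKO libraries and 77.9% to 82.0% in WT libraries.

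Other lists of the neutrophil lineage had lower medians than the 3 stages, and none of their genes passed in edgeR. The members were chosen with earlier results known, so their higher medians are not an independent contrast. Log2 fold changes within the lists were mixed, from −0.01 to 0.67 for the promyelocyte and early precursor genes. They ran from −0.34 to 1.83 for the other secondary and gelatinase granule genes and from −0.18 to 1.34 for the other late genes. Of the 8 genes of promyelocytes and early precursors 6 were tested, 5 with a log2 fold change above 0, none at an unadjusted p under 0.05 or called in DESeq2, and the median was 0.19. This median leaves out *Ms4a3* and *Fcnb*, which did not pass the filter. The most abundant of them were *Hp* (haptoglobin) at 0.67, *Serpinb1a*, an inhibitor of neutrophil serine proteases, at 0.13, *Mgst1* at 0.26 and *Srgn*, the granule proteoglycan serglycin, at −0.01. Of 11 other secondary and gelatinase granule genes 9 were tested, 6 of them above 0, none at an unadjusted p under 0.05 or called in DESeq2, with a median of 0.80. *Mmp9* (gelatinase B) at −0.18, *Lyz2* (lysozyme) at −0.34, *Anxa1* at −0.02 and *Lcn2*, which binds bacterial siderophores, at 0.69 were the most abundant, and *Mmp9* and *Lyz2* are also made by osteoclasts and macrophages. Of 24 other late and mature neutrophil genes 14 were tested, 11 above 0, with a median of 0.55 and 3 at an unadjusted p under 0.05. *G0s2* was at 0.37, *Lrg1* at 0.00 and *Stfa1*, a stefin whose reads near-identical copies can share, at 1.34 (edgeR adjusted p = 0.480). A few low genes of these lists, chosen after their values were seen, were also higher in *Hbb*-cKO replicates 1 and 3 than in replicate 2 and than in every WT library. *Chil3*, a chitinase-like lectin of specific granules, was at 3.13, 0.150 and 2.27 CPM in *Hbb*-cKO, against 0.419, 0.182 and 0.923 CPM in WT, with a log2 fold change of 1.83 (edgeR adjusted p = 0.577). *Ms4a3*, a marker of granulocyte and monocyte progenitors, had 20, 5 and 15 counts in *Hbb*-cKO and 3, 0 and 0 in WT. *Fcnb* had 25, 3 and 11 counts in *Hbb*-cKO and 3, 2 and 3 in WT, and *Cd177* had 35, 6 and 46 in *Hbb*-cKO and 8, 4 and 8 in WT. All of these counts were too few for the filter.

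Among the 24 late and mature genes, the surface markers *Ly6g* and *Cxcr2* were near 0, while *Csf3r* was detected in every library. These 3 genes were chosen after their values were seen. *Ly6g* had 0.284, 0 and 0 CPM in *Hbb*-cKO, against 0.180, 0 and 0 CPM in WT, and *Cxcr2*, the chemokine receptor, had 0.284, 0.201 and 0.613 CPM in *Hbb*-cKO, against 0.299, 0.182 and 0.173 CPM in WT. *Csf3r*, the receptor for granulocyte colony-stimulating factor, had 2.90, 1.05 and 2.69 CPM in *Hbb*-cKO, against 2.52, 3.10 and 1.79 CPM in WT, with a log2 fold change of −0.16 (edgeR adjusted p = 0.937).

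The transcription factors of the lineage were split in direction. Of 10 transcription factors of granulopoiesis 9 were tested, 4 above and 5 below 0, with a median of −0.02, 1 higher and 2 lower at an unadjusted p under 0.05. *Klf4* was at −0.02 and *Cebpa*, which starts granulocyte fate, at 0.17. *Cebpb*, used in emergency granulopoiesis, was at −0.51 (edgeR adjusted p = 0.331), and *Cebpd* at −0.54 (edgeR adjusted p = 0.395). *Irf8*, which favours monocytes over granulocytes and was chosen after its values were seen, had 10.57, 7.17 and 8.54 CPM in *Hbb*-cKO, against 4.49, 3.77 and 5.19 CPM in WT, and passed in DESeq2 (adjusted p = 0.0245) but not in edgeR (adjusted p = 0.191). *Cebpe*, needed for secondary granules and also chosen after its values were seen, did not pass the filter, with 18, 0 and 12 counts in *Hbb*-cKO and 2, 3 and 0 in WT. Of 16 growth factors, chemokines and receptors 9 were tested, with a median of 0.01, and *Cxcl12*, the marrow retention signal, was at 0.30, *Csf2ra* at 0.01, *Il3ra* at −0.18 and *Il6ra* at 0.11. The 6 NADPH oxidase subunits were all above 0, with a median of 0.13, and *Cyba* was at 0.04, *Rac2* at 0.20 and *Ncf1* at 0.04. Of 10 inhibitors and activators of the granule proteases 8 were tested, 7 above 0, with a median of 0.76 and 4 at an unadjusted p under 0.05. *Ctsc*, the cathepsin C that activates the serine proteases, was at 0.28, and *Serpinb6b*, a serpin, at 1.04, which passed in DESeq2 (adjusted p = 0.0159) but not in edgeR (adjusted p = 0.149).

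Markers of other cells were read in the same libraries. The 13 monocyte and macrophage markers summed to 915.5, 718.5 and 827.6 CPM in *Hbb*-cKO replicates 1, 2 and 3 and to 795.6, 909.0 and 679.5 CPM in WT replicates 1, 2 and 3, with a median log2 fold change of 0.07. All 8 osteoclast markers had log2 fold changes below 0, and they summed to 1644, 576.7 and 955.9 CPM in *Hbb*-cKO, against 959.4, 1287 and 1333 CPM in WT, so that *Hbb*-cKO replicate 2 was the lowest of all libraries here. The 10 chondrocyte markers took the opposite order among the *Hbb*-cKO libraries, at 16670, 55180 and 39590 CPM, against 37520, 40810 and 32080 CPM in WT. The 8 osteoblast markers summed to 1464, 683.1 and 1012 CPM in *Hbb*-cKO, against 813.4, 1035 and 1233 CPM in WT. Of 13 B cell precursor markers, cells of the marrow, 7 were tested and all 7 were above 0 with a median of 0.57. Of 11 eosinophil and basophil markers 4 were tested, 3 above 0, with a median of 0.11, and the list summed to 10.57, 5.76 and 9.11 CPM in *Hbb*-cKO, against 7.61, 6.63 and 4.90 CPM in WT. *Prg2*, the eosinophil major basic protein, was at 2.61, 1.103 and 2.45 CPM in *Hbb*-cKO, against 0.419, 0.730 and 0 CPM in WT, with a log2 fold change of 2.42 (edgeR adjusted p = 0.339). The erythroid gene *Klf1* was at 2.90, 0.150 and 3.02 CPM in *Hbb*-cKO, against 1.14, 0.486 and 1.10 CPM in WT, and *Hemgn* at 2.61, 0.351 and 2.78 CPM in *Hbb*-cKO, against 0.838, 0.243 and 0.231 CPM in WT, both low in the same *Hbb*-cKO library as the granule genes. *Alas2*, of haem synthesis in red cells, was at 94.96, 109.7 and 109.7 CPM in *Hbb*-cKO, against 479.6, 290.1 and 181.3 CPM in WT. Of the 10 erythroid genes tested, 0 passed in edgeR, 1 was higher and 1 lower at an unadjusted p under 0.05, and 1, *Alas2*, was called in DESeq2 (adjusted p = 9.51e-05). *Klf1*, *Hemgn*, *Alas2* and *Prg2* were chosen after their values were seen. The 16 proliferation genes were all above 0, with a median of 0.60, 0 called in edgeR, 14 at an unadjusted p under 0.05 and 7 called in DESeq2, and *Hbb*-cKO replicate 2 stood with the other *Hbb*-cKO libraries. The part of these cell types, of the share of marrow, bone or muscle in a library, and of sex in the granule gene result was not tested.

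**Figure D5:**
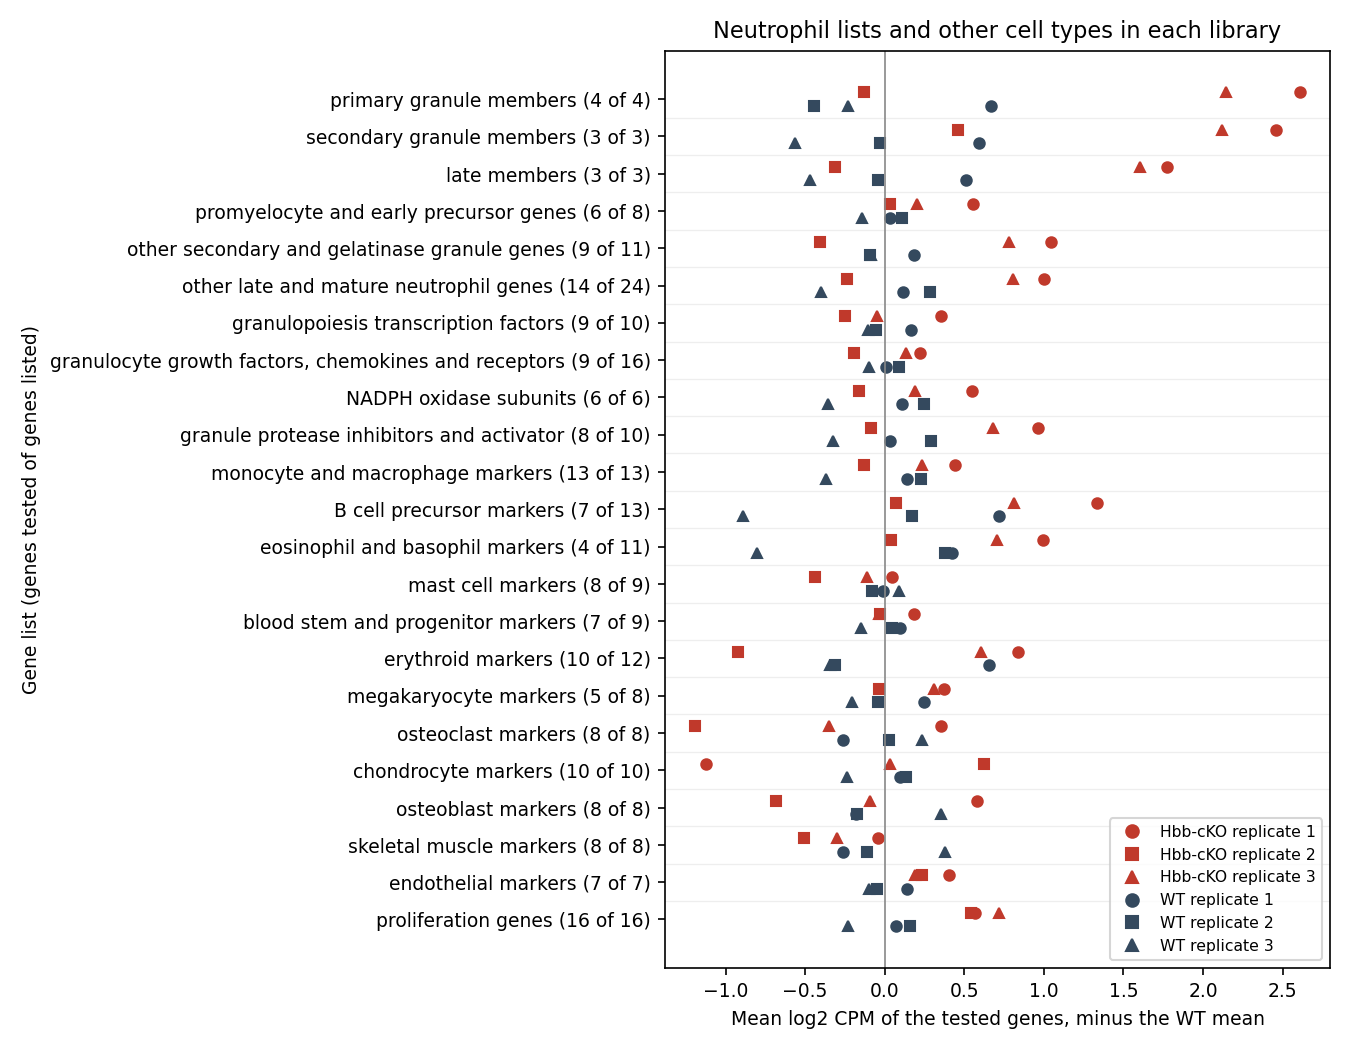
Mean log2 CPM of the tested genes of each list minus the WT mean, by library, with *Hbb*-cKO in red above WT in blue and marker shape giving the replicate number. Primary granule members reached 2.61 and 2.14 in *Hbb*-cKO replicates 1 and 3 and −0.13 in replicate 2, while chondrocyte markers were lowest in *Hbb*-cKO replicate 1.

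Genes whose log2 CPM followed the mean of a stage across the 6 libraries were picked by rule from 14406 candidates. For the primary granule genes they were *Adgrl2* (r = 0.996), *Mmp15* (0.990), *Ctse* (0.989), *C5ar1* (0.988) and *Lrmp* (0.984). For the secondary granule genes they were *Cstdc4* (0.996), *Miga2* (0.994), *Cstdc5* (0.991), *Fam122a* (0.990) and *Trarg1* (0.987), and for the late genes *Cstdc5* (0.988), *Tmc8* (0.984), *Rin3* (0.982), *Stfa1* (0.981) and *Haus5* (0.979). *Cstdc4*, *Cstdc5* and *Stfa1* are members of the stefin A cluster, whose copies can share reads. The swing of these genes varied widely, since *Cstdc4* ran at 9.89, 2.86 and 8.92 CPM in *Hbb*-cKO, against 3.35, 2.55 and 1.67 CPM in WT, while *Adgrl2* ran at 55.52, 45.96 and 53.65 CPM in *Hbb*-cKO, against 49.35, 44.69 and 46.09 CPM in WT. In all, 120 candidates (0.833%) had r above 0.9 with the primary, 196 (1.36%) with the secondary and 110 (0.764%) with the late genes.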

How the data were processed

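Poly(A) RNA of P6 knee joint cartilage was analysed from 3 *Hbb*-cKO and 3 WT libraries, grouped by the genotype in the labels. The authors deposited whole-number counts per gene, not normalized. Listed as tools by the submitters are edgeR, StringTie, HISAT2 2.1.0, fastp 0.19.5 and CASAVA 1.8 (processing notes), with a strand setting not given in the sources used here. Of 55487 genes, 31373 had a count, and 17175 passed edgeR's filter (minimum count 10, minimum total 15, by group). TMM factors, a robust quasi-likelihood fit and Benjamini-Hochberg adjustment over all tested genes were run (edgeR 4.0.16, R 4.3.3) at a threshold of 0.05, with a prior count of 2. The standard error is the log2 fold change divided by the square root of F. DESeq2 1.42.0, other scalings and filters, a replicate block, a Y-linked covariate and leaving out each library were alternatives. Counts of any pair of libraries differed by more than sampling noise. All 10 members passed the filter. The members, gene lists and tests were chosen with earlier results of these data known. Named genes were the members, up to 4 tested genes with the highest mean CPM in each neutrophil list, and the 5 genes most like each stage. Of the genes this rule names, 1 is not reported here. *Col2a1* was named to check the tissue, *Hbb* and the sex-linked genes to describe the libraries, and other genes outside the rule after their values were seen. Promoters came from RefSeq. The fits were tested on simulated data of this design, in which DESeq2 made more false calls than edgeR. These data were drawn in a single run with edgeR's own dispersions, a setting that can favour edgeR.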

Additional observations from a re-analysis of the deposited data

How the results depend on the processing

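The log2 fold changes of the 10 members stayed above 0 under all alternatives in which each was fitted, 13 for 9 members and 12 for *Elane*, which the stricter filter (CPM of at least 1 in 3 libraries) dropped. The count of members called was 0 throughout, except for 2 in DESeq2. The count of genes called, 18 in edgeR with all libraries, was 236 in DESeq2, 60 without a filter, 4 with the replicate block and 48 with Y-linked expression as a covariate, and it ran from 1 (without WT replicate 1) to 39 (without WT replicate 3) when libraries were left out. The replicate numbers did not pair the samples (r of −0.026, −0.108 and −0.029 between the deviations of same-numbered libraries), and the block changed no call of a member. Leaving out 1 library moved the median log2 fold change between 1.52 and 2.50 for the primary, 1.63 and 2.31 for the secondary and 0.99 and 1.68 for the late genes, with *Hbb*-cKO replicate 1 left out at the low end and replicate 2 at the high end. With the Y-linked covariate the log2 fold change of *Elane* was 5.80, that of *Camp* 2.91 and that of *S100a8* 2.13, against 2.84, 1.66 and 1.29 without it. The edgeR adjusted p with the covariate was 0.239, 0.188 and 0.255. *Prtn3* hardly moved, at 1.58 with the covariate and 1.54 without it. The causes were not tested. Low counts limit *Elane*, *Ctsg* and *Retnlg*, where several libraries held fewer than 20 counts. *Mpo* (19 and 18 counts) and *Prtn3* (15 and 8 counts) were also below 20 in *Hbb*-cKO replicate 2 and WT replicate 2, and *Camp* was at 13 in WT replicate 3.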
